A study of Mus musculus with 20 samples.

Results

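The genes described here are 10 liver genes of drug metabolism that are known as targets or members of the CAR and PXR pathway. They were chosen by symbol: the cytochrome P450 genes Cyp2a5, Cyp2b10, Cyp2c29, Cyp2c37, Cyp2c54, Cyp2c55, Cyp3a11 and Cyp1a2, the electron donor gene Por, and Nr1i2, which encodes PXR. All 10 were found among the 24972 symbols of the liver table. RNA was taken from total liver of mice labelled male and fed for 6 weeks. Of the 14 libraries, 8 were labelled WT (control diet n = 4, alcohol diet n = 4) and 6 were labelled RageΔMye (control diet n = 3, alcohol diet n = 3). RageΔMye is read as a loss of RAGE, the receptor encoded by Ager, in myeloid cells. The driver of the deletion and the age of the mice are not given in sources used here, and nothing in the labels says that replicates were separate animals, so p-values measure the spread between these libraries. The series also holds 6 libraries of RAW264.7, a mouse macrophage-like cell line, treated for 6 hours with BSA (n = 3) or with [O] HMGB1 and IL1β as a complex (n = 3).

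CAR, encoded by Nr1i3, and PXR are nuclear receptors of hepatocytes that sense drugs, bile acids and other lipophilic compounds. Each pairs with RXRα on DNA repeats related to AGGTCA and raises the transcription of oxidising enzymes, conjugating enzymes and transporters. The P450 enzymes sit in the endoplasmic reticulum, carry a haem group, and receive electrons from NADPH through POR. Several mouse P450 genes of these families also differ between male and female liver.

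The sequence directly before the transcription start is shown for the 4 genes whose level rose on alcohol in WT liver and for Cyp3a11, the classical PXR target. Each line holds 250 bases, 5′ to 3′ on the strand of the gene, from RefSeq on GRCm38.p6. Capitals mark the half-sites AGGTCA and AGTTCA on either strand and TATAAA on the strand of the gene.
Cyp2a5: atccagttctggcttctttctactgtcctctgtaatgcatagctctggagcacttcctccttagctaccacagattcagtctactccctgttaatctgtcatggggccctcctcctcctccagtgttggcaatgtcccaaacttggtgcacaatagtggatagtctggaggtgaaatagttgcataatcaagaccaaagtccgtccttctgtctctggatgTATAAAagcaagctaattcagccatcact
Cyp2b10: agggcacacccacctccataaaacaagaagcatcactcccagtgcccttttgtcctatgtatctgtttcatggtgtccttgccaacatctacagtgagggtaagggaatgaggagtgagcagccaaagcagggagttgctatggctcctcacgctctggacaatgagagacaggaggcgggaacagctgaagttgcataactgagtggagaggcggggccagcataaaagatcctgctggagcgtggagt
Cyp2c37: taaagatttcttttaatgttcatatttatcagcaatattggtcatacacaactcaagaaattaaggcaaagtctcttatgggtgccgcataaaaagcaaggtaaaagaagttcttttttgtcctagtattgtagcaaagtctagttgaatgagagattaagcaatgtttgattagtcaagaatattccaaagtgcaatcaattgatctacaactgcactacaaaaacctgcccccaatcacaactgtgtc
Cyp3a11: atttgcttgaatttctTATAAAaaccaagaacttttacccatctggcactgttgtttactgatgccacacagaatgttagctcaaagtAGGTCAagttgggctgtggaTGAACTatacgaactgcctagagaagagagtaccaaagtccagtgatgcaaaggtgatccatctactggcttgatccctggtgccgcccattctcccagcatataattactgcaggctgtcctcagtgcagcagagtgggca
Por: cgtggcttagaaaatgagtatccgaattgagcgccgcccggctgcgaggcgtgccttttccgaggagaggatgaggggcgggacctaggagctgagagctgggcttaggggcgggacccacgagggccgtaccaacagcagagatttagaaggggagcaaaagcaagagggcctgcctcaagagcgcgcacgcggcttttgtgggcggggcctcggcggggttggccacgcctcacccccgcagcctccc
These windows lie at chr7:26835089-26835338 on the plus strand for Cyp2a5 and chr7:25897408-25897657 on the plus strand for Cyp2b10. They lie at chr19:39992174-39992423 on the plus strand for Cyp2c37, chr5:145879855-145880104 on the minus strand for Cyp3a11 and chr5:135688895-135689144 on the plus strand for Por. RefSeq starts can differ from the GENCODE gene spans given below. The window of Por lies inside its gene span, and those of Cyp2a5, Cyp2b10 and Cyp3a11 reach into theirs. Distances and matches hold for the RefSeq start used. Of the 10 genes, 9 had such a window. Cyp3a11 was 1 of 2 genes with a half-site: it held AGGTCA at 162 bases and AGTTCA, on the opposite strand, at 142 bases before the start. The other was Cyp2c29, with AGGTCA at 154 bases. AGGTCA or AGTTCA occurred in 24.2% of all 32851 windows of this length. TATAAA occurred in 5 of the 9 windows, against 7.59% of all windows. It lay 29 bases before the start in Cyp2a5, Cyp2c55 and Cyp1a2, 19 bases before it in Cyp2c29 and 234 bases before it in Cyp3a11. The window of Por had no TATAAA, a GC content of 65.6%, against a median of 52.4% over all windows, and 3 matches to GCGTG, the core of the element bound by the aryl hydrocarbon receptor. GCGTG occurred in 28.2% of all windows and at 2 places in that of Cyp2b10. A match describes letters only, and no binding was measured.

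On mm10, 4 of the genes lie in the Cyp2c cluster of chromosome 19 (Cyp2c55 at chr19:39007019-39042693, Cyp2c29 at chr19:39269405-39330713, Cyp2c37 at chr19:39992424-40012243 and Cyp2c54 at chr19:40037940-40073827). Cyp2b10 (chr7:25897620-25926624) and Cyp2a5 (chr7:26835305-26843548) share a cluster on chromosome 7. The others lie on further chromosomes: Cyp3a11 (chr5:145854426-145879964), Por (chr5:135670033-135735326), Cyp1a2 (chr9:57676937-57683703) and Nr1i2 (chr16:38248323-38294824). The P450 genes share sequence with close copies. Of the 50-base windows of the transcript, 40.8% of those of Cyp2a5, 30.1% of those of Cyp2c37 and 25.7% of those of Cyp2c54 recur in the transcript of another gene, most often Cyp2a4 for the first and Cyp2c50 for the latter 2. The share was 14.8% for Cyp3a11, 9.69% for Cyp2b10, 4.97% for Cyp1a2, 2.08% for Cyp2c29 and 0.514% for Cyp2c55. No window of Por or Nr1i2 recurred. How shared reads were assigned is not given in sources used here, so the values of the P450 genes are uncertain to that extent.

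Values are in TPM, a share of each library's transcripts that takes gene length into account. The number of reads behind them is unknown. The libraries do not all match their labels. Xist was at 17.8 to 27.3 TPM in the 4 WT libraries on alcohol and at most 0.135 TPM in the 4 on control diet. The sum of 4 Y-linked genes was at most 0.0161 TPM in the former and 11.3 to 16.6 TPM in the latter, so in WT the effects of diet and of sex cannot be told apart. Ager was at 93.1 to 166 TPM in the libraries labelled RageΔMye and at most 0.478 TPM in WT, against what the labels would give, and total liver is no direct check of a deletion in myeloid cells. Libraries labelled RageΔMye listed 7596 to 8502 genes above 0 (WT 15113 to 15599), and their most frequent value above 0 was 14.4 to 20.5 TPM (WT 0.0576 to 0.0835 TPM). Genes with exonic overlap between strands took 55.8% to 61.7% of TPM there and 15.4% to 18.3% in WT. The sets may thus have been counted with different strand settings or in another way that differed, which touches every value in the libraries labelled RageΔMye, those of all 10 genes included. Levels of the 10 genes are therefore described within each set. The 8 hepatocyte markers, such as albumin, were above 0 in every liver library. In such bulk tissue fewer cells of a type and less RNA per cell cannot be told apart.

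In WT liver on control diet Cyp3a11 and Cyp2a5 were the highest of the 10 genes, at 764 ± 295 and 542 ± 114 TPM (SD, n = 4), and their libraries overlapped. Por, Cyp1a2 and Cyp2c29 followed at 328 ± 42.9, 319 ± 103 and 292 ± 72.6 TPM, did not reach Cyp2a5 and overlapped each with the next. Cyp2c37 (112 ± 10.7 TPM), Nr1i2 (95.9 ± 6.82 TPM) and Cyp2c54 (89.3 ± 13.7 TPM) came next, again with overlap between neighbours. Cyp2b10 at 2.51 ± 1.57 TPM and Cyp2c55 at 0.578 ± 0.207 TPM were the lowest and overlapped. The sum over the 10 genes was 2545 ± 396 TPM on control diet and 4724 ± 426 TPM on alcohol, with no overlap between libraries. Cyp2a5 alone took 21.3% ± 2.42 of that sum on control diet and 44.1% ± 2.22 on alcohol.

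**Figure D1:**
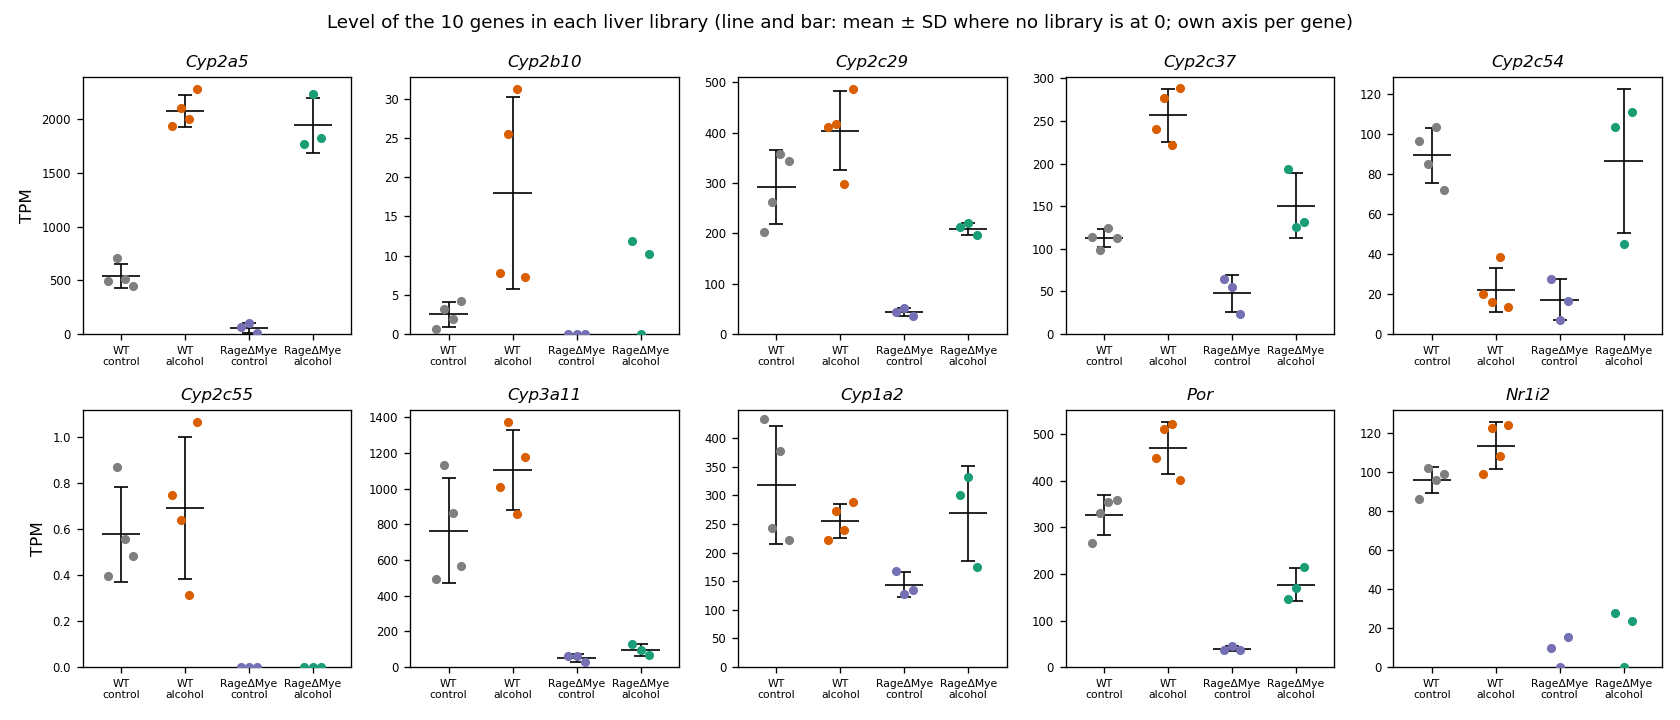
Level of each of the 10 genes in TPM (vertical axis, from 0, its own scale per gene) in the 14 liver libraries (1 point each), by labelled genotype and diet, with mean ± SD where no library of the group is at 0. The alcohol libraries lie apart from the control libraries for Cyp2a5 in both genotypes, below them for Cyp2c54 in WT and above them for Cyp2c54 in the libraries labelled RageΔMye.

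Within WT, 4 of the 9 genes tested rose on alcohol (Cyp2a5, Cyp2b10, Cyp2c37 and Por), 1 fell (Cyp2c54) and 4 did not pass (Cyp2c29, Cyp3a11, Cyp1a2 and Nr1i2). Cyp2c55 stayed under the minimum of a group mean of 1 TPM and was not tested. The test was limma on log2(TPM + 1), with p-values adjusted by the Benjamini-Hochberg method over all 9747 genes tested and a threshold of 0.05. Among all those genes 13.3% rose and 17.9% fell. The libraries of the diets did not overlap for 5 of the 9 genes, against 30.8% of all genes. The median difference was 0.53 on the log2 scale over the 9 genes and -0.05 over all genes tested.

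Cyp2a5 encodes an enzyme that oxidises coumarin and nicotine. Its level was 493, 708, 515 and 451 TPM in WT controls and 1933, 2103, 2002 and 2275 TPM in WT on alcohol. The lowest alcohol library was above the highest control library by more than the range of either group. The ratio of the means was 3.83, and the log2 difference was 1.96 ± 0.14 (SE, limma adjusted p = 7.9e-06). The exact permutation test over libraries gave a two-sided p of 0.0286, the smallest that 4 against 4 can give, for this gene and for each of the other 4 that passed.

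Its near-identical neighbour Cyp2a4, an enzyme of steroid hydroxylation that is higher in female liver, moved much further in the same libraries. Cyp2a4 was at 0.70, 10.6, 1.22 and 0.35 TPM in controls and 2750, 1705, 2075 and 3235 TPM on alcohol. On alcohol Cyp2a4 was thus at about the level of Cyp2a5, while Cyp2a5 was 66.6 to 1301 times as high as Cyp2a4 on control diet. The part of reads shared between these 2 genes in the rise of Cyp2a5 was not tested.

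Cyp2b10 encodes the enzyme most used as a readout of CAR. The WT control libraries had 0.65, 3.20, 1.93 and 4.28 TPM, and the alcohol libraries had 7.77, 25.5, 31.2 and 7.31 TPM. The groups did not overlap, but 2 of the alcohol libraries were more than 3 times as high as the others. The log2 difference was 2.30 ± 0.49 (SE, limma adjusted p = 0.00634). On alcohol Cyp2b10 was still among the lowest of the 10 genes. Its relatives Cyp2b9 and Cyp2b13, both known as higher in female mice, stood at 301 to 514 TPM and 193 to 311 TPM on alcohol and at no more than 6.29 and 3.51 TPM on control diet. Of the 50-base windows of Cyp2b10, 7.82% recur in Cyp2b13. The part of shared reads in the rise of Cyp2b10 was not tested.

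Cyp2c37 and Cyp2c54, neighbours on chromosome 19 whose enzymes oxidise arachidonic acid, moved in opposite directions. Cyp2c37 was at 115, 98.3, 124 and 112 TPM in WT controls and 240.2, 277, 222 and 288 TPM on alcohol, a log2 difference of 1.18 ± 0.12 (SE, limma adjusted p = 1.1e-04). Cyp2c54 was at 96.2, 85.1, 104 and 72.1 TPM in controls and 19.9, 16.1, 38.3 and 13.7 TPM on alcohol, and fell by 2.07 ± 0.27 on the log2 scale (SE, limma adjusted p = 4.5e-04). Neither gene's groups overlapped. The ratio of Cyp2c37 to Cyp2c54 was 1.16 to 1.56 in the control libraries and 5.80 to 21.1 in the alcohol libraries. Cyp2c50, the gene that shares most sequence with both, fell from 459 ± 70.0 to 251 ± 18.3 TPM (limma adjusted p = 9.8e-04).

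**Figure D2:**
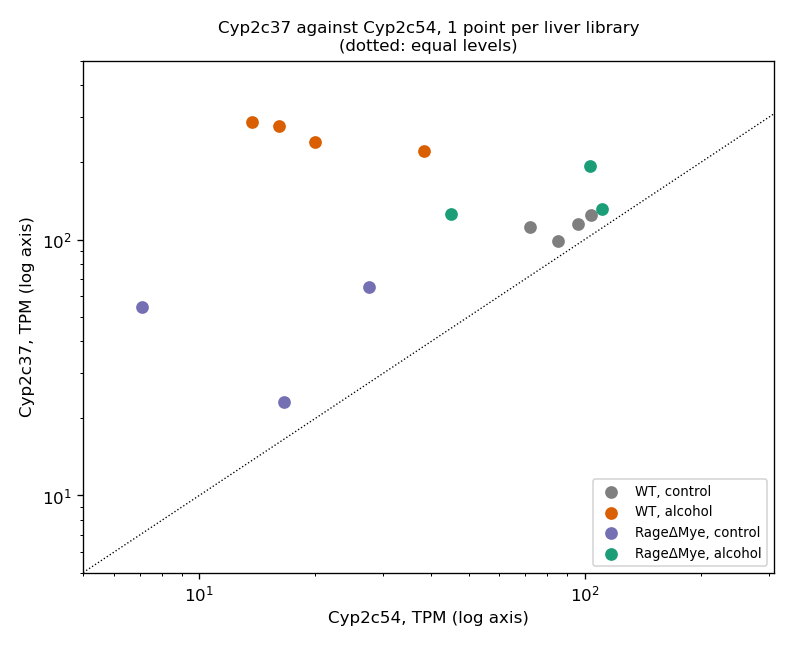
Cyp2c37 (vertical axis) against Cyp2c54 (horizontal axis), both in TPM on log axes, with 1 point per liver library coloured by labelled genotype and diet and a dotted line of equal levels. The 4 WT control libraries sit near the line and the 4 WT alcohol libraries far above it, while the libraries labelled RageΔMye on alcohol lie to the right of those on control diet.

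Cyp2c29, another arachidonic acid and drug oxidase known to respond to CAR, was at 203, 262, 358 and 344 TPM in controls and 412, 417, 299 and 488 TPM on alcohol. The groups overlapped through 1 alcohol library, replicate 3. The log2 difference of 0.48 had a 95% interval of 0.03 to 0.93 and did not pass (limma adjusted p = 0.0941), whereas without that library it passed (0.62, adjusted p = 0.0465). Cyp2c55, an intestinal and hepatic P450 induced by PXR ligands, stayed at 0.31 to 1.06 TPM in all WT libraries (exact permutation test, two-sided p = 0.629).

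Cyp3a11 encodes the main drug-oxidising enzyme of the mouse Cyp3a family. It was at 493, 1134, 864 and 564 TPM in controls and 1011, 1371, 855 and 1179 TPM on alcohol, and the groups overlapped. Its log2 difference was 0.59 with a 95% interval of 0.03 to 1.15 (limma adjusted p = 0.1003). Control replicate 2 was the highest of its group, and without it the difference was 0.81 and passed (adjusted p = 0.0225).

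Cyp1a2, the caffeine-oxidising enzyme and a target of the aryl hydrocarbon receptor, was at 434, 242, 378 and 222 TPM in controls and 221, 272, 239 and 288 TPM on alcohol. The alcohol libraries lay within the range of the control libraries or less than 1 TPM outside it. The log2 difference of -0.27 had a 95% interval of -0.73 to 0.19 (limma adjusted p = 0.354).

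Por, the reductase that supplies electrons to all these P450 enzymes, was at 266, 331, 356 and 358 TPM in controls and 449.6, 511, 522 and 402 TPM on alcohol. The groups did not overlap, and the gap between them was smaller than the range of either. The log2 difference was 0.53 ± 0.13 (SE, limma adjusted p = 0.0143). Nr1i2 was at 86.3, 102, 96.2 and 99.2 TPM in controls and 99.2, 123, 109 and 124 TPM on alcohol. The groups overlapped between 99.2 and 102 TPM, and the log2 difference of 0.24 had a 95% interval of -0.01 to 0.49 (limma adjusted p = 0.131).

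When all 14 liver libraries shared 1 estimate of spread, Cyp2c37 (limma adjusted p = 0.0412) and Cyp2c54 (0.0213) passed in WT, and Cyp2a5 (0.0658), Cyp2b10 (0.180) and Por (0.150) did not. In that fit 337 of 12069 genes passed in all. Spread within groups, as the median SD of log2 values, was 0.142 to 0.189 in the WT groups and 0.675 to 0.692 in the groups labelled RageΔMye. The calls of these 5 genes held in WT when any 1 library was left out.

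Genes that mark the sex of mouse liver moved with the WT groups. The summed level of 12 female-biased genes was 2.54 to 55.1 TPM on control diet and 5781 to 8073 TPM on alcohol, and all 12 rose. That of 12 male-biased genes was 56336 to 82037 TPM on control diet and 426 to 1364 TPM on alcohol, and all 12 fell. Of these genes, 6 of the former were tested only because of their alcohol group and 3 of the latter only because of their control group. Among markers of other cell types, 4 of 8 for stellate cells, 2 of 8 for sinusoidal endothelium and 2 of 5 for leukocytes rose, against 13.3% of all genes tested, while none of 8 Kupffer cell markers and neither of 2 cholangiocyte markers passed. Of those that rose, 1 stellate cell marker and 1 leukocyte marker were tested only because of their alcohol group, so these calls lend no support. The part of sex and of these cells in the differences of the 10 genes was not tested.

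Other genes of the pathway, from lists chosen by function, gave the following calls in WT. Of 13 receptors and partners tested, 3 rose and 1 fell, against 13.3% and 17.9% of all genes tested. Arnt, the dimerisation partner of the aryl hydrocarbon receptor, rose by 0.68, Ahr by 0.81 and Hnf4a, a hepatocyte regulator of many P450 genes, by 0.56 on the log2 scale (limma adjusted p = 0.00759, 0.0261 and 0.0282). The calls of Ahr and Hnf4a were lost when single libraries were left out. For Ahr these were control replicates 1, 2 and 4 and alcohol replicates 1 and 4 (adjusted p up to 0.0726), and for Hnf4a control replicates 1 and 2 and alcohol replicates 2 and 4 (up to 0.0723). Nr1i3 was the receptor that fell: its level was 202, 264, 224 and 164 TPM on control diet and 125, 154, 144 and 175 TPM on alcohol. The groups overlapped, the log2 difference was -0.50 ± 0.16 (SE, limma adjusted p = 0.0349), and the call was lost without any 1 of control replicates 1 to 3 or alcohol replicates 1 to 3 (adjusted p up to 0.106).

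Of 11 genes of electron transfer and haem supply, 1 rose and 1 fell, against 13.3% and 17.9% of all genes tested. Hmox1, the haem-degrading enzyme, rose from 31.5 ± 8.19 to 88.7 ± 11.4 TPM (n = 4, limma adjusted p = 3.6e-04), and Pgrmc1, a haem-binding partner of P450 enzymes, fell by 0.39 on the log2 scale (adjusted p = 0.0382). The Pgrmc1 call was lost without any 1 of the same 6 libraries (adjusted p up to 0.105). Alas1, the first enzyme of haem synthesis and a known CAR and PXR target, was at 358 ± 63.8 TPM on control diet and 417 ± 78.8 TPM on alcohol (adjusted p = 0.365).

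Of 34 other Cyp1, Cyp2 and Cyp3 genes tested in WT, 16 rose and 10 fell, against 13.3% and 17.9% of all genes tested. The smallest adjusted p-values among those that rose belonged to Cyp2c69 (means of 0.971 TPM on control diet and 285 TPM on alcohol), Cyp3a16 (0.129 and 119.8 TPM) and Cyp2c40 (2.16 and 246 TPM), all known as higher in female liver. Those among the genes that fell belonged to Cyp2d9 (2395 and 26.8 TPM), a male-specific steroid hydroxylase, Cyp2u1 (1.63 and 0.0619 TPM) and Cyp2f2 (1045 and 436 TPM), a periportal enzyme. The limma adjusted p was at most 6.6e-04 for these 6 genes. Of the 16 that rose, 6 were tested only because of their alcohol group, Cyp2c69 and Cyp3a16 among them, and of the 10 that fell only Cyp2u1 because of its control group. A gene that enters in this way had to differ, so these counts lend no support.

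Of 25 conjugating and related enzymes that are known to respond to CAR or PXR, 9 rose and 5 fell. Among all genes tested 13.3% rose and 17.9% fell. Sult2a1, a sulfotransferase of bile acids and steroids that is higher in female mice, rose from 1.32 ± 2.26 to 514 ± 202 TPM. Akr1b7, an aldo-keto reductase, rose by 2.26 and Gstm2, a glutathione transferase, by 0.91 on the log2 scale. Akr1b7 was at 0.167 to 0.431 TPM in the controls, and it was 1 of 2 genes among the 9 that entered the test through the alcohol group alone. Ces2c, a carboxylesterase, fell by 1.38, Aldh1a7 by 1.29 and Aldh1a1, a retinaldehyde dehydrogenase, by 0.90. The limma adjusted p was at most 0.00337 for these 6 genes.

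Of 9 drug transporters tested, 2 rose and 2 fell, against 13.3% and 17.9% of all genes tested. Abcc4, an efflux pump, rose by 1.20 and Slco1a4, an uptake carrier, by 1.56 on the log2 scale. Abcc4 was at 0.369 to 0.972 TPM on control diet and was tested only because of its alcohol group, and Slco1a1 only because of its control group. Slco1a1, an uptake carrier that is higher in male mice, fell by 4.59, and Abcg2, an efflux pump, by 1.61 (limma adjusted p at most 9.5e-04 for these 4 genes). Of the 2 aryl hydrocarbon receptor targets tested both rose: Tiparp by 2.33 and Nqo1 by 0.71 (adjusted p = 4.6e-04 and 0.0189). The Nqo1 call was lost without control replicate 1 (adjusted p = 0.0517) or control replicate 3 (adjusted p = 0.0524).

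Because P450 enzymes are strongest around the central vein, zonation markers are set beside them. Among all genes tested in WT, 13.3% rose and 17.9% fell. Of 9 pericentral markers tested in WT, 1 rose (Glul, glutamine synthetase, by 0.59, limma adjusted p = 0.0119) and 1 fell (Cyp2e1, the ethanol-oxidising P450, by 0.39, adjusted p = 0.0369). The Cyp2e1 call was lost without any 1 library other than control replicate 2 (adjusted p up to 0.106). Of 10 periportal markers, Sds rose by 0.66, while Cyp2f2 fell by 1.28 and Hal by 0.70.

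In the libraries labelled RageΔMye none of the 9 genes tested passed, against 4 of 10689 genes (0.0374%) in all. All 9 had a positive difference, with a median of 2.14 on the log2 scale, against 0.0058 over all genes tested. At an unadjusted p under 0.05 there were 6 of the 9 genes and 747 of all genes (6.99%). The libraries of the diets did not overlap for 7 of the 9 genes, all but Cyp2b10 and Nr1i2, against 11.7% of all genes. Cyp2b10 was tested only because of its alcohol group. For 3 against 3 libraries the exact permutation test cannot go below a two-sided p of 0.10. The 10 genes summed to 478, 454 and 300.02 TPM on control diet and to 2890.3, 3223 and 2752 TPM on alcohol.

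Cyp2a5 was at 65.1, 103 and 10.4 TPM in the control libraries labelled RageΔMye and at 1764, 2236 and 1823 TPM on alcohol. The groups did not overlap, and the control libraries spread over almost 10-fold. The lowest control value, 10.4 TPM, was under the most frequent value above 0 of its library (14.4 TPM). The size of the difference is uncertain to that extent. The log2 difference was 5.50 ± 0.73 (SE, limma adjusted p = 0.0630). Cyp2a4 had a listed value of 0 in all 3 controls and was at 223, 773 and 60.0 TPM on alcohol (adjusted p = 0.0573). Cyp2b10 had a listed value of 0 in every control library and of 11.9, 0 and 10.3 TPM on alcohol, values under the most frequent value above 0 of their libraries.

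Cyp2c29 was at 44.7, 51.4 and 35.7 TPM in controls and 212, 219.8 and 197 TPM on alcohol. The gap between the groups was wider than the range of either, and the log2 difference was 2.24 ± 0.30 (SE, limma adjusted p = 0.0630). Por was at 36.3, 45.6 and 35.7 TPM in controls and 147, 169 and 215 TPM on alcohol, with a log2 difference of 2.14 ± 0.32 (SE, adjusted p = 0.102). For both genes every alcohol library was at least 3 times as high as every control library. The control values were low, however. They were 2.47 to 2.50 times the most frequent value above 0 of their library for Cyp2c29 and 2.01 to 2.48 times for Por. The size of these differences and their SE are uncertain to that extent.

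Cyp2c37 was at 65.2, 54.7 and 23.2 TPM in controls and 194, 126 and 132 TPM on alcohol (log2 difference 1.74 ± 0.46, limma adjusted p = 0.341). Cyp2c54 was at 27.5, 7.10 and 16.6 TPM in controls and 103, 45.0 and 111 TPM on alcohol (2.35 ± 0.60, adjusted p = 0.324). Its alcohol libraries were all higher than its control libraries, where in WT they were all lower. The control value of 7.10 TPM was under the most frequent value above 0 of its library (20.5 TPM). Cyp2c50 was at 159, 95.7 and 24.6 TPM in controls and 273, 158 and 128 TPM on alcohol, with overlap.

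Cyp1a2, the highest of the 10 genes in the control libraries labelled RageΔMye, was at 169, 128 and 135 TPM in controls and 300.1, 331 and 175 TPM on alcohol (log2 difference 0.85 ± 0.32, limma adjusted p = 0.652). Cyp3a11 was at 60.6, 64.1 and 28.1 TPM in controls and 130.0, 94.5 and 65.5 TPM on alcohol (0.94 ± 0.45, adjusted p = 0.672). For Cyp3a11 the lowest alcohol library and the highest control library were almost level. Nr1i2 was at 9.54, 0 and 15.3 TPM in controls and 28.0, 0 and 23.8 TPM on alcohol, and its difference of 0.69 ± 1.57 turned negative without control replicate 2, alcohol replicate 1 or alcohol replicate 3. Cyp2c55 was listed at 0 in all 6 libraries.

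**Figure D3:**
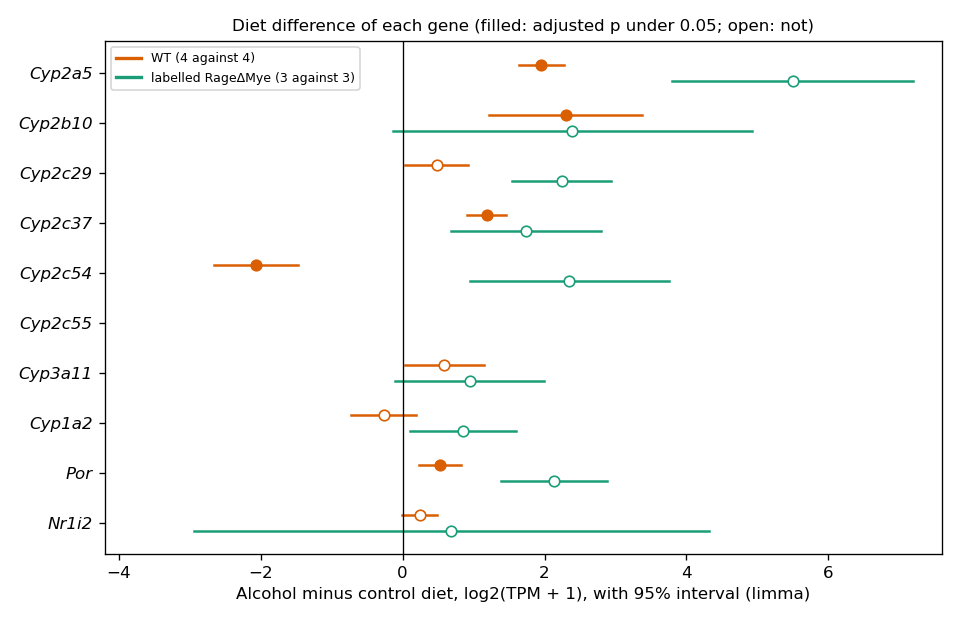
Difference between alcohol and control diet in log2(TPM + 1) (horizontal axis) for 9 of the 10 genes (Cyp2c55 was not tested), with 95% intervals from limma, in WT and in the libraries labelled RageΔMye. Points are filled where the adjusted p is under 0.05: 5 genes in WT and none in the libraries labelled RageΔMye, whose intervals are wider.

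In a fit to all 14 liver libraries with 1 shared spread, 5 of the genes passed in the libraries labelled RageΔMye: Cyp2a5 (limma adjusted p = 8.3e-05), Cyp2c29 (9.8e-05), Cyp2c37 (0.00720), Cyp2c54 (0.0155) and Por (1.8e-05). In that fit 657 of 12069 genes passed in all. The median SD of log2 values was 0.675 to 0.692 in these groups and 0.142 to 0.189 in WT. A shared estimate thus tends to understate the spread here and to give p-values that are too small. With library weights estimated per genotype only Cyp2a5 passed (0.0184), against 50 of 12069 genes in all. Sex markers differed between the diets here too. Female-biased genes summed to 0 TPM on control diet and 186 to 775 TPM on alcohol. Of these 12 genes, 7 to 10 were listed at 0 in each alcohol library. The 5 that were tested entered only because of their alcohol group. Cyp2a4, which is among them, alone was at 223, 773 and 60.0 TPM there. Male-biased genes summed to 18439 to 22024 TPM on control diet and 1043 to 5783 TPM on alcohol, while Xist was at most 3.10 TPM. The Y-linked sum was 3.16 to 4.50 TPM on control diet and 0.276 to 1.74 TPM on alcohol, with no overlap. All these sums were under the most frequent value above 0 of these libraries (14.4 to 20.5 TPM). In each library 1 to 3 of the 4 Y-linked genes were listed at 0, so this difference is uncertain. Mup20, a male-biased gene of urinary protein, was 1 of the 4 genes that passed and fell by 4.29 on the log2 scale (limma adjusted p = 0.0177). Their part in the differences was not tested.

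None of the 8 pathway lists had a gene that passed in the libraries labelled RageΔMye, where 4 of 10689 genes (0.0374%) passed in all. The genes with the smallest p in each list had these values. Gstm1, a glutathione transferase, was at 453, 349 and 388 TPM in controls and 2635, 3361 and 1514 TPM on alcohol (limma adjusted p = 0.0573), and Gsta2 was listed at 0 in all control libraries and at 14.6 to 21.9 TPM on alcohol (0.112). Alas1 was at 6.03, 61.8 and 43.2 TPM in controls and 222, 255 and 243 TPM on alcohol (0.277). Abcc3, an efflux pump of glucuronides, was at 3.19 to 11.9 TPM and 32.6 to 93.5 TPM (0.207).

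Among receptors, Rxra, which encodes the partner of CAR and PXR, was at 69.7 ± 11.2 TPM on control diet and 40.8 ± 16.9 TPM on alcohol (n = 3, limma adjusted p = 0.684), and Nr0b2 had a log2 difference of -2.11 (0.710). The other genes with the smallest p were Cyb5a (log2 difference 1.12, limma adjusted p = 0.652), Nqo1 (1.43, 0.751) and Cyp2e1 (1.06, 0.324). For the zonation lists they were Oat (0.76, limma adjusted p = 0.751), Cyp2f2 (-0.75, 0.613) and Hsd17b13 (0.94, 0.689). Every one of these genes missed the threshold.

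The CAR gene itself could not be read cleanly in the libraries labelled RageΔMye. Nr1i3 (chr1:171213970-171220701, plus strand) shares exon sequence with Tomm40l, a mitochondrial import gene on the minus strand (chr1:171216011-171222514). Nr1i3 was at 145, 267 and 71.9 TPM in controls and 172, 377 and 117 TPM on alcohol there (limma adjusted p = 0.778). Tomm40l was at 3398, 4268 and 2407 TPM in controls and 19045, 21489 and 25899 TPM on alcohol, and was 1 of the 4 genes that passed (log2 difference 2.75 ± 0.22, adjusted p = 0.0157, and 0.0666 to 0.201 when any 1 library was left out). In WT the order was opposite: Tomm40l was at 5.90, 5.26, 5.12 and 4.21 TPM in controls and 1.73, 2.62, 2.29 and 2.36 TPM on alcohol, far below Nr1i3, and fell by 0.91 on the log2 scale (adjusted p = 9.1e-04). The library kit keeps strand, and the strand setting of the counting is not given in sources used here, so reads of this pair cannot be assigned. Among the 10 genes the annotation gives Cyp2c55 an exon overlap on the opposite strand. The other 9 have none, but a strand setting that differed between the sets would touch their values too.

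**Figure D4:**
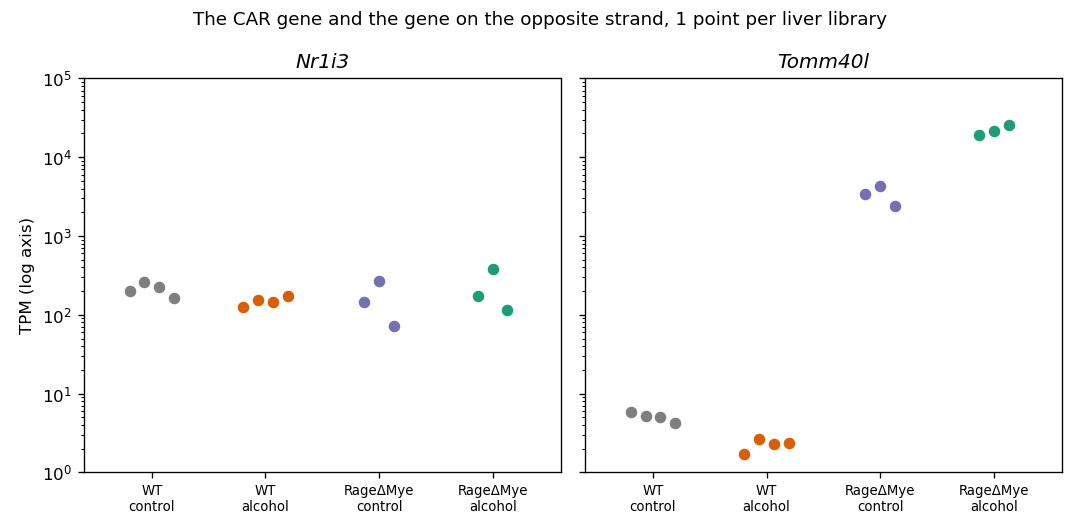
Levels of Nr1i3 (left) and Tomm40l (right) in TPM on a log axis in the 14 liver libraries, 1 point each, by labelled genotype and diet. Nr1i3 stays between 71.9 and 377 TPM in all libraries, while Tomm40l is below 6 TPM in WT and above 2407 TPM in the libraries labelled RageΔMye.

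The difference between the diet effects of the genotypes was tested on all 14 liver libraries with library weights per genotype. None of the 9 genes passed, against 61 of 12069 genes (0.505%) in all, while 3 had an unadjusted p under 0.05 (Cyp2a5, Cyp2c54 and Por). The diet difference was larger in the libraries labelled RageΔMye by 3.54 for Cyp2a5 (95% interval 1.57 to 5.51, limma adjusted p = 0.189), by 4.42 for Cyp2c54 (1.11 to 7.73, 0.376) and by 1.61 for Por (0.12 to 3.10, 0.527) on the log2 scale. For the other 6 genes the interval included 0. In the control libraries labelled RageΔMye, Cyp2a5 and Cyp2c54 each had a value under the most frequent value above 0 of its library. Without weights 4 genes passed, Cyp2a5, Cyp2c29, Cyp2c54 and Por, with adjusted p-values of 0.0237, 0.00780, 0.00167 and 0.00262. That fit shared 1 spread between the sets, and 463 of 12069 genes passed in it. Without WT alcohol replicate 3 Cyp2c54 passed (adjusted p = 0.0320). Genotype, the prefix of the library names and the differences in listed genes between the sets cannot be told apart. In WT the effects of diet and of sex cannot be told apart, so the same holds for this difference.

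In RAW264.7 cells 9 of the 10 genes were listed at 0 in all 6 libraries. Por was at 57.0 to 65.8 TPM with BSA and at 49.7 to 55.7 TPM with the complex. Genes with exonic overlap between strands took 56.0% to 58.9% of TPM in these libraries, Nr1i3 was at 69.7 to 278 TPM, and Tomm40l was listed at 0 in 4 of 6. The strand setting is as uncertain here as in the libraries labelled RageΔMye, so a listed 0 does not show that a gene was silent. These values come from a separate table and were not tested against liver.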

How the data were processed

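The labels' protocols name TruSeq Stranded mRNA as the library kit, and the submitters' processing notes give mm10 as the genome build. Aligner, counting tool and strand setting are not given in sources used here. The authors deposited 1 table for liver and 1 for RAW264.7 cells, whose columns all sum to 1000000 within rounding and were read as TPM. All columns were used. The 10 genes and all lists were chosen with earlier results of these data known.

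Values were transformed to log2(TPM + 1). Genes averaging 1 TPM or more in a fitted group were tested with limma 3.58.1 (R 4.3.3, intensity trend), in the 8 WT and the 6 RageΔMye libraries separately, and p-values were adjusted by Benjamini-Hochberg over all genes tested (threshold 0.05). The difference between the diet effects was fitted on all 14 liver libraries with weights per genotype. The fits were tested on simulated data.

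Besides the 10 genes, the text names Nr1i3, its opposite-strand partner, close copies of the 10 genes, and from each of 8 pathway lists and each genotype up to 3 passing genes per direction, by adjusted p, or the leading 2 by p where none passed. A gene that this rule names is not reported here. Locations come from GENCODE vM21, which placed 24464 of 24972 symbols. Shared sequence was the share of 50-base windows of 1 transcript per gene found in other genes' transcripts. Alternatives were other pseudocounts, filters and scalings, joint fits, a block, and each library left out.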

Additional observations from a re-analysis of the deposited data

Results flagged for a closer look

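In the WT control group replicate 2 lay far above the other 3 libraries for 3 genes known as higher in female liver, among 32 sets of 4 WT values examined for the 10 genes, Nr1i3, Tomm40l and the close copies. If values were normally distributed, about 1 in 20 such sets would hold a sample that far out by chance. TPM values near 0 need not be so distributed, so that rate is a rough guide. The 3 genes were flagged in the same library and may not be independent. Cyp2a4 was at 10.6 TPM in that library, and the next highest was at 1.22 TPM. Cyp2b9 was at 6.29 TPM, against at most 0.683 TPM, and Cyp2b13 was at 3.51 TPM, against at most 0.129 TPM. The same library had the highest sum of female-biased genes among the WT controls (55.1 TPM, against 2.54 to 5.35 TPM) and the highest Xist (0.135 TPM). All these values are small beside the WT alcohol libraries.

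In the limma test of the difference between the diet effects of the genotypes, 3 of the genes named passed. Tomm40l was 3.66 higher on the log2 scale in the libraries labelled RageΔMye (adjusted p = 0.0264), where it rose with alcohol while it fell in WT. Reads of Tomm40l and Nr1i3 cannot be assigned, and the sets may have been counted with different strand settings, so this value may set different transcripts against each other. The call was lost without any 1 of the 6 libraries labelled RageΔMye (adjusted p 0.0636 to 0.111). Cyp2d9 was 6.37 higher (adjusted p = 0.00162): it was at 1904 to 2765 TPM and 25.2 to 29.6 TPM in WT on control diet and alcohol, and at 306 to 561 TPM and 199 to 734 TPM in the libraries labelled RageΔMye. Cyp2c69 was -7.24 (adjusted p = 0.0254). It was listed at 0 in all 6 libraries labelled RageΔMye, so this value restates the WT difference and is no test of a diet effect that differs. That call was lost without any 1 of these 6 (adjusted p 0.0719 to 0.0998). Cyp2d9 and Cyp2c69 are known as sex-biased in mouse liver, and the sex markers of the WT libraries differed between the diets.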

How the results depend on the processing

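The number of the 9 tested genes that passed in WT was 5, and 5 or 6 when a library was left out. It was 2 in the joint fit of all 14 liver libraries. In the libraries labelled RageΔMye none passed, also when a library was left out (0), against 1 with a filter of 5 TPM, 5 in the joint fit and 1 with library weights. For the difference between genotypes none passed, 4 did without weights, and 0 or 1 with a library left out. Over all genes the calls in WT were 3042, 1881 with a filter of 5 TPM and 337 in the joint fit. In the libraries labelled RageΔMye they were 4, 9 with a filter of 5 TPM, 7 with quantile normalization, 1 after rescaling without genes above 5000 TPM, 657 in the joint fit, 50 with weights, 37 without the intensity trend, and 0 to 5 when a library was left out. For the difference they were 61, 128 without a filter, 39 after rescaling without opposite-strand overlaps and 463 without weights. The joint fit and the fit without weights shared 1 spread between sets whose median SD was 0.142 to 0.189 (WT) and 0.675 to 0.692 (labelled RageΔMye). The cause of these changes was not tested.

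With the replicate number as a replicate block in the libraries labelled RageΔMye, 0 of the 9 genes and 0 of all genes passed. Same-numbered libraries had correlations of 0.0181, -0.0163 and -0.0002, and only replicate 1 correlated best with its own number from both sides. Correlations between all numbers were weak, so they cannot decide whether the numbers pair the samples. No shared numbers exist within WT.

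Differences that did not pass changed sign in some settings. For Nr1i2 in the libraries labelled RageΔMye they ran from -0.55 to 2.27 with a library left out (negative without 3 libraries), and for Nr1i3 from -0.0020 to 0.94. For the difference between genotypes Cyp2b10 was -0.35 with a pseudocount of 5, -0.65 with quantile normalization and -0.55 to 1.29 with a library left out. There Nr1i2 ran from -0.79 to 2.03 and Cyp3a11 from -0.018 to 0.61, and Cyp2a4 was 0.47 with a pseudocount of 0.1. No other named gene changed sign. Of 72 values of the 9 tested genes in WT with a library left out, 70 kept their side of the threshold and 2 newly passed. TPM keeps no read number, so low values such as those of Cyp2b10 and Nr1i2 in the libraries labelled RageΔMye have no counting error here.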
